A study of Homo sapiens with 4 samples.

Results

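GAS5 (growth arrest-specific 5) is a non-coding gene on the minus strand of chromosome 1 (GRCh37). Its members here were found by 1 rule: every row of the deposited expression table whose transcript identifier, without its version, belonged to GAS5 in GENCODE 44 lifted to GRCh37. The rule found 29 rows among 19835 rows of non-coding transcripts, which lie between positions 173833037 and 173838020. The current annotation holds 91 transcripts of this gene.

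RNA was taken from HUH7, an established line of human hepatocellular carcinoma, which the paper grew in medium with serum. There were 4 strand-specific libraries, made after ribosomal RNA depletion per the paper, while the labels also name polyA RNA. They were taken here as 1 group and called replicates 1 to 4. The labels name no treatment, so the comparisons below are between isoforms, introns and genes within the same libraries. Whether these were separate cultures is not given in the sources used here, and the spreads and p-values may therefore measure technical variation only. Sample titles also carry a letter, H for replicates 2 and 4 and L for replicates 1 and 3, to which the labels give no meaning. Means, SDs and SEs pool the libraries of both letters. Values that lay apart by letter are marked in some of the results, not in all.

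The gene body of GAS5 encodes a series of box C/D small nucleolar RNAs (snoRNAs). Such RNAs carry 2 short motifs, box C near the start and box D near the end, and guide methylation of ribosomal RNA. They are released from introns after splicing, and the joined exons have little coding capacity and are known to be unstable while translation proceeds. GAS5 RNA is known to accumulate when growth stops, and its first bases are of the terminal oligopyrimidine type found in genes of the translation machinery. An isoform that retains an intron keeps the snoRNA sequence inside a longer RNA.

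The 10 snoRNAs of GAS5 are shown first, because the classes of isoforms below are set by them. Only SNORD78 had an entry in the annotation of this build. The others were placed in the 11 introns of the spliced isoform ENST00000448718 by a search for box C (NTGATG) and box D (CTGA) on the sense strand, 40 to 73 bases apart. Such a pair was present in 10 of the 11 introns, which are 172 to 916 bases long, and in 3.31% of RefSeq promoter windows of 300 bases. With the names, order and lengths of RefSeq there was 1 way to assign them, 1 snoRNA in each intron except intron 9. Annotated sequences of the same name aligned to the same place for all 7 snoRNAs that had such a hit. For SNORD78 this can be its own entry at the locus, so that hit is no separate check. SNORD76, SNORD80 and SNORD47 had no such hit, so their places rest on the boxes and on the RefSeq names, order and lengths. Capitals mark box C and box D, and each sequence runs from 5 bases before box C to 5 bases after box D in the GRCh37 reference.
SNORD74, intron 1, chr1:173836813-173836882: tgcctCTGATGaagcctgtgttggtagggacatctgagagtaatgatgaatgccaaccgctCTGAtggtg
SNORD75, intron 2, chr1:173836016-173836076: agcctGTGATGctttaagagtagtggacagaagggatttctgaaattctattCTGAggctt
SNORD76, intron 3, chr1:173835771-173835851: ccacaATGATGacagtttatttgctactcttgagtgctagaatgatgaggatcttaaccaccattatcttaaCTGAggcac
SNORD77, intron 4, chr1:173835441-173835506: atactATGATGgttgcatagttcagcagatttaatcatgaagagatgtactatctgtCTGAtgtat
SNORD44, intron 5, chr1:173835103-173835166: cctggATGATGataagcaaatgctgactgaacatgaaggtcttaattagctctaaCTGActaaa
SNORD78, intron 6, chr1:173834759-173834824: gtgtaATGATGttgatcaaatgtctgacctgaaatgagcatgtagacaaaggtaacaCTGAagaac
SNORD79, intron 7, chr1:173834488-173834567: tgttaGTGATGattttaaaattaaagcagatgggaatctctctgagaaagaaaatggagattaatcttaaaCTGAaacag
SNORD80, intron 8, chr1:173833968-173834043: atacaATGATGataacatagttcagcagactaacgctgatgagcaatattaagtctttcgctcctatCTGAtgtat
SNORD47, intron 10, chr1:173833506-173833583: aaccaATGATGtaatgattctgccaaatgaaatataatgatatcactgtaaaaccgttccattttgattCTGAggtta
SNORD81, intron 11, chr1:173833286-173833357: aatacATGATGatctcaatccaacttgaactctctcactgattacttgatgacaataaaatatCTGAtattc

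The longest run of bases shared by any pair of these snoRNAs was 14 bases, in SNORD77 and SNORD80, which both carry catagttcagcaga. Every other pair shared at most 10 bases in a row. The placed SNORD78 ended 1 base beyond its annotated end at 173834760 and had the same start base, 173834824. The annotation of this build lists 1 snoRNA transcript at this locus, SNORD78, and the table had no row for it. Rows of the other snoRNAs could not be recognised by identifier, so mature snoRNA levels were not read here. No row was present either for the neighbouring genes GAS5-AS1 and ZBTB37, which lie on the opposite strand.

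In the deposited estimates, the level of GAS5 was divided among many annotated isoforms. Summed over its rows, GAS5 stood at 3484, 3625, 3339 and 3888 FPKM in replicates 1 to 4. FPKM is the number of fragments mapped to a transcript, divided by transcript length and by the fragments aligned in the library. For non-coding genes the paper aligned reads to non-coding transcripts alone, so these are not levels among all transcripts of the cell. This sum was above the 5 FPKM used in the study to call a transcript expressed, by 9.22 ± 0.10 (SE) on the scale of log2(FPKM + 1), with a limma adjusted p = 1.88e-17. Of 7124 genes tested, 50.3% were called above 5 FPKM. In bulk RNA such a level does not tell how many cells carried the transcript.

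Of the 29 rows, 24 were above 0 in at least 1 library and had a mean of at least 0.1 FPKM, and limma was run on these as part of all 11435 rows that passed this filter. It called 19 GAS5 rows above 5 FPKM, against a share of 41.9% of all rows tested. It called 3 GAS5 rows below 5 FPKM, against 43.3% of all rows tested. A further 2 rows could not be placed, and 5 rows were listed at 0 in every library. The 19 rows above the threshold had means between 29.45 and 481.2 FPKM, with adjusted p-values in the limma fit up to 3.78e-07.

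These rows overlap along most of their length. On the current models, 17 of the 29 rows had no 50-base stretch that was not also in another GAS5 row, and the highest share of such own stretches was 23.0%, in ENST00000430245. The values come from RSEM, a program that divides fragments matching several transcripts by estimation, so a level of 1 row depends on the levels of the others. All 5 rows listed at 0 were without an own 50-base stretch, as were 12 of the 24 rows above 0. Only 1 of the 29 identifiers had the same version in the table as in the annotation, and the exon structures are those of the later versions. About 13900 to 17100 fragments per library were estimated to lie on GAS5, from 4520000 to 5040000 fragments on all non-coding transcripts.

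**Figure D1:**
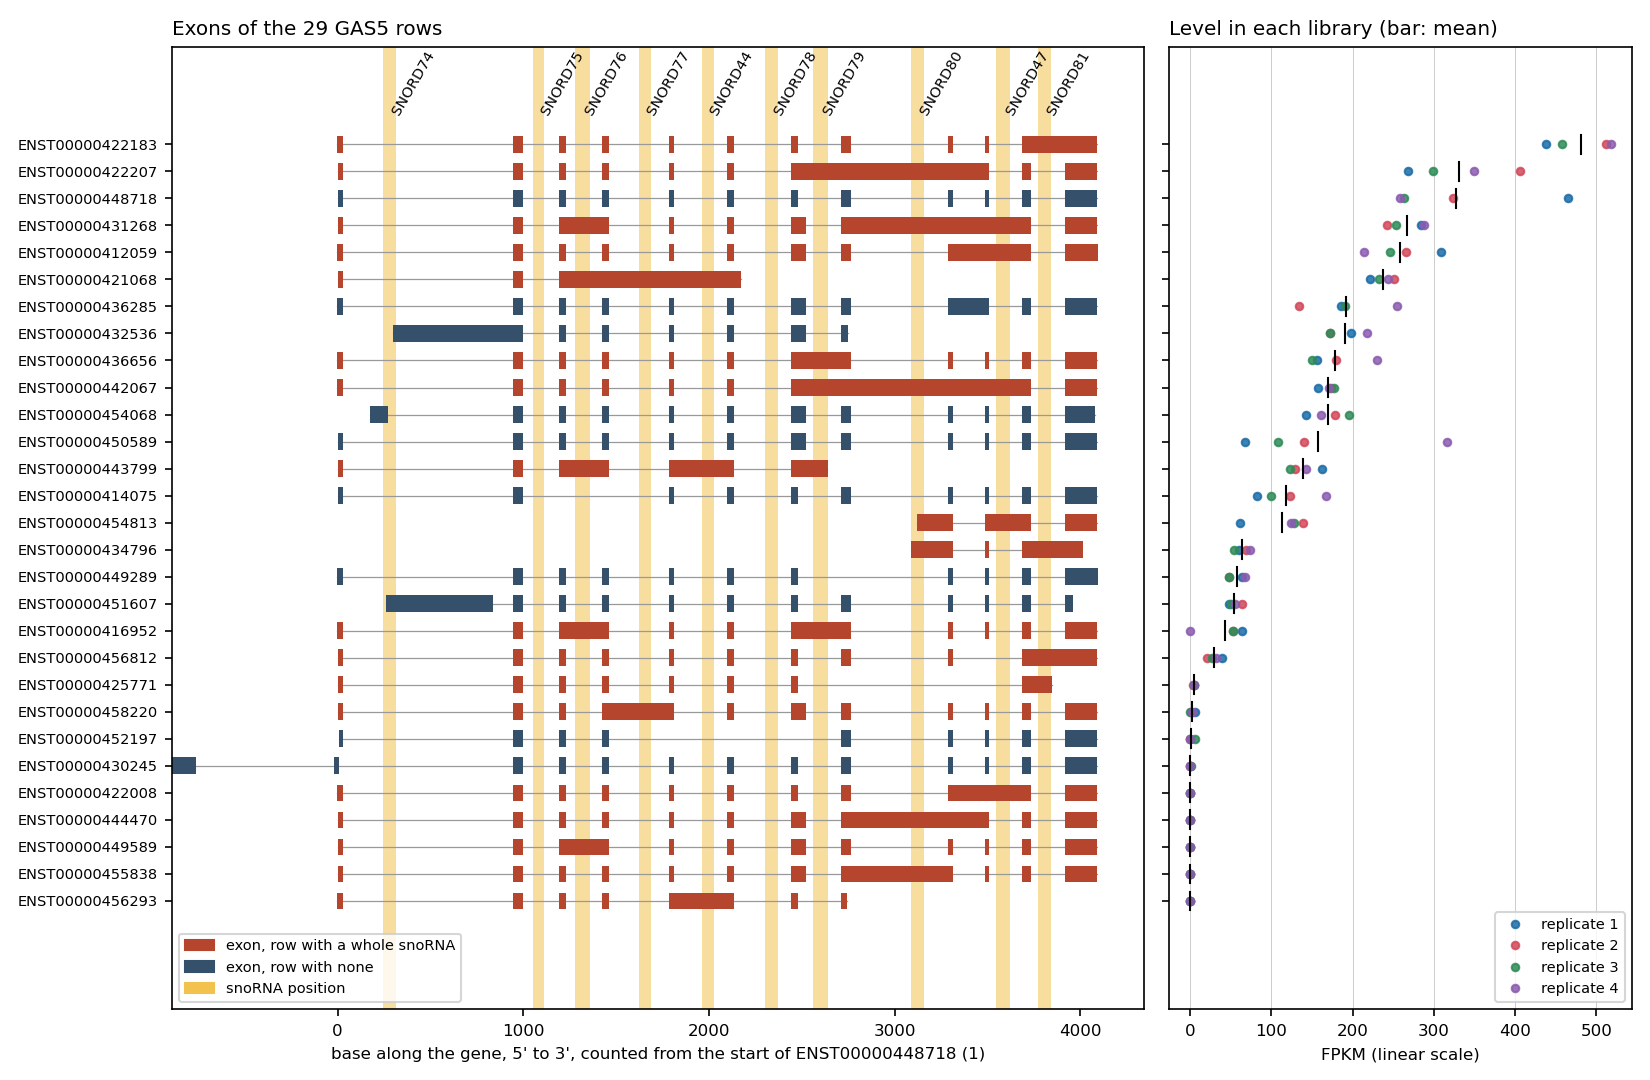
Exons of the 29 GAS5 rows (left, x axis in bases from the first base of ENST00000448718) and the level of each row in each of the 4 libraries in FPKM (right, points; black bar, mean), with rows in order of mean level. Red rows hold at least 1 whole snoRNA in an exon, blue rows hold none, and yellow bands mark the 10 snoRNAs; ENST00000422183 lies highest, at a mean of 481.2 FPKM, and 5 rows lie at 0 in all libraries.

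The highest row on average was ENST00000422183, which retains intron 11 with SNORD81 and splices the other introns. It stood at 438.06, 511.72, 457.09 and 517.90 FPKM in replicates 1 to 4. Its share of the summed GAS5 FPKM was 13.4% ± 0.653 (SD, n = 4), so no isoform held a majority. The next, ENST00000422207, retains introns 7 to 9 in 1 long exon that holds SNORD79 and SNORD80. It stood at 268.48, 406.02, 299.45 and 349.47 FPKM.

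ENST00000422183 was higher than ENST00000422207 in 4 of 4 libraries and their ranges did not overlap. The mean within-library difference was 0.55 ± 0.16 (SD) on the scale of log2(FPKM + 1). The exact sign-flip permutation test gave p = 0.13, the smallest p that 4 libraries allow, so the order could not pass 0.05. Over the 23 neighbouring pairs in the order of mean levels, the adjusted p of this exact test was never below 0.958. Ranges were apart in 2 of the 23 pairs, this one and ENST00000456812 over ENST00000425771, and the same member was higher in 4 of 4 libraries in 3 pairs. In the other pairs the ranges overlapped, and neighbours there could not be told apart. Rows further from each other in the order could lie apart, as ENST00000421068, at 221.61 to 250.43 FPKM, did from ENST00000443799, at 122.68 to 162.28 FPKM. In estimated fragments, which grow with the length of a transcript, the order of the first 2 rows turned, at about 1610 per library for ENST00000422183 and 2280 for ENST00000422207. In replicate 1 the highest row was not ENST00000422183 but ENST00000448718, at 464.70 FPKM.

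Some rows lay apart by the letter in the sample titles. Of the 20 rows with a mean of at least 5 FPKM, 8 had both H libraries above both L libraries and 1, ENST00000416952, had them below. Among all 5626 rows of the table with such a mean, 911 had them above and 672 below, 28.1% in either direction. The GAS5 rows share fragments by estimation, so they are not separate observations. ENST00000422183 stood at 511.72 and 517.90 FPKM in the H libraries and at 438.06 and 457.09 FPKM in the L libraries. The GAS5 sum was also higher in H, at 3625 and 3888 FPKM, than in L, at 3484 and 3339 FPKM. What the letters mean is not given, and with 2 libraries each no test was run.

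The isoforms with snoRNA sequence in an exon are described by the number of snoRNAs they hold. There were 19 such rows, 14 of them above 0. Their summed level was 2231.27, 2443.32, 2204.34 and 2390.43 FPKM, against 1252.29, 1181.99, 1134.41 and 1497.74 FPKM for the 10 rows with no whole snoRNA. Both H libraries were above both L libraries in the snoRNA-bearing sum. These rows held 64.7% ± 2.57 (SD, n = 4) of the summed GAS5 FPKM. Their sum, taken over 19 rows against 10, was higher in 4 of 4 libraries, by 0.88 ± 0.16 (SD) on the log2 scale, a ratio of 1.84. The exact sign-flip permutation test gave p = 0.13, again the smallest possible. The ratio is one of sums and does not say that a single row of this class was higher. Whether fragments of unspliced RNA or of excised introns were counted in these rows was not tested. In fragments instead of FPKM, which weights each row by its length, the ratio was 3.02.

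Rows with 3 whole snoRNAs held 18.8% ± 0.817 of the sum. ENST00000431268 retains intron 3 and introns 8 to 10, with SNORD76, SNORD80 and SNORD47, and stood at 283.56, 242.81, 253.76 and 287.23 FPKM. ENST00000442067 retains introns 7 to 10, with SNORD79, SNORD80 and SNORD47, and stood at 157.86, 173.50, 177.49 and 170.68 FPKM. Its coefficient of variation over libraries (CV, the SD as a percentage of the mean) was 5.00%, the lowest of the 20 rows with a mean of at least 5 FPKM. ENST00000421068 is a short form that retains introns 3 to 5, with SNORD76, SNORD77 and SNORD44, and ends at 173834956 without the 3′ exons. It stood at 221.61, 250.43, 232.87 and 243.12 FPKM and varied almost as little, with a CV of 5.29%.

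Rows with 2 whole snoRNAs held 14.3% ± 1.46 of the sum, in ENST00000422207 and 2 other rows. ENST00000443799 retains introns 3 and 5, with SNORD76 and SNORD44, and ends inside intron 7 at 173834491. It stood at 162.28, 129.18, 122.68 and 142.00 FPKM. ENST00000416952 retains introns 3 and 7, with SNORD76 and SNORD79. It stood at 63.84, 52.62 and 52.87 FPKM in replicates 1 to 3 and was listed at 0 in replicate 4. It was 1 of the 2 rows that could not be placed against 5 FPKM, with a limma adjusted p = 0.0772, while without replicate 4 it was called above, with a limma adjusted p = 3.49e-08.

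Rows with 1 whole snoRNA were the most numerous, 13 in all and 8 above 0, with 31.6% ± 0.956 of the sum. Besides ENST00000422183, ENST00000412059 retains introns 9 and 10 with SNORD47 and stood at 308.76, 265.02, 245.44 and 213.78 FPKM. ENST00000436656 retains intron 7 with SNORD79 and stood at 156.22, 179.29, 149.82 and 229.60 FPKM. These 2 are otherwise spliced and start at the same base, 173837129.

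A pair of rows with 1 snoRNA starts inside the gene, within SNORD80 itself. ENST00000454813 starts at 173834009, holds SNORD47 and stood at 60.87, 139.43, 127.66 and 123.93 FPKM. ENST00000434796 starts at 173834039, holds SNORD81 and stood at 60.03, 68.16, 53.59 and 74.16 FPKM. Their ranges overlapped, and ENST00000454813 was the higher of the 2 in 4 of 4 libraries.

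The remaining rows with 1 snoRNA were low. ENST00000456812, with SNORD81, skips exon 10 and stood at 38.58, 20.78, 26.74 and 31.68 FPKM. ENST00000425771 lacks exons 8 to 10, ends within intron 11 just after SNORD81 and stood at 5.22, 3.13, 4.88 and 4.73 FPKM. It was the other row that could not be placed, with a limma adjusted p = 0.543, from about 7.44 fragments per library.

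ENST00000458220, the only row above 0 that retains intron 4 by itself, with SNORD77, stood at 5.90, 1.23, 0 and 2.15 FPKM. It was called below 5 FPKM with a limma adjusted p = 0.0209, a call that was lost without replicate 2 (adjusted p = 0.0842), without replicate 3 (adjusted p = 0.0895) or with no filter on low values (adjusted p = 0.117). The 5 rows listed at 0 in all 4 libraries were ENST00000422008 (SNORD47), ENST00000444470 and ENST00000455838 (both SNORD80), ENST00000449589 (SNORD76) and ENST00000456293 (SNORD44). Each of them holds a snoRNA that another row above 0 also holds.

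Counted by snoRNA, the sequence of SNORD47 lay in rows with the highest summed level, 811.05, 820.76, 804.35 and 795.62 FPKM. Next came SNORD80, at 709.90, 822.33, 730.70 and 807.38 FPKM, then SNORD79, at 646.40, 811.43, 679.63 and 749.75 FPKM. The ranges of these 3 overlapped. SNORD76, at 731.29, 675.04, 662.18 and 672.35 FPKM, overlapped with SNORD80 and SNORD79 and was above both in replicate 1. It held 19.2% ± 1.59 of the GAS5 sum. SNORD81 followed with 16.2% ± 0.453, SNORD44 with 10.5% ± 0.464 and SNORD77 with 6.69% ± 0.324. SNORD74, SNORD75 and SNORD78 were whole in no exon of any of the 29 rows. Rows of different snoRNAs are partly the same rows, so these sums do not add up to a total. The summed levels for SNORD77, SNORD79, SNORD80 and SNORD81 were higher in both H libraries than in both L libraries.

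The same was read intron by intron, as the FPKM of rows that keep an intron whole over the FPKM of all rows that span it. Introns 1, 2 and 6, of SNORD74, SNORD75 and SNORD78, were kept by no row. Intron 4 was retained in 7.04% ± 0.386 of this FPKM (SD, n = 4) and intron 5 in 11.1% ± 0.431, while intron 3, upstream of both, stood at 20.2% ± 1.54. Intron 7 stood at 23.8% ± 2.18, intron 8 at 27.0% ± 1.46, intron 10 at 26.9% ± 1.94 and intron 11 at 19.1% ± 0.426. The values of introns 7, 8 and 10 overlapped between libraries. In introns 3, 5 and 10 both H libraries were below both L libraries.

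The highest retained share was that of intron 9, the only intron with no snoRNA, at 41.5%, 39.7%, 41.5% and 38.8% in replicates 1 to 4. None of its libraries overlapped with those of another intron, and both H libraries were below both L libraries. Of the 5 rows above 0 that retain it, 4 also hold a snoRNA of a neighbouring intron. The other is ENST00000436285, which retains intron 9 alone and has no snoRNA, although it is annotated as retained intron. It stood at 185.32, 133.78, 191.13 and 254.88 FPKM, 5.32% ± 1.2 of the sum. These shares describe the isoforms that the annotation lists, and in fragments the share of intron 9 was 58.3% and that of intron 8 was 45.9%. Both ribosomal RNA depletion and polyA RNA are named for these libraries, and what this means for the retained shares was not tested.

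**Figure D2:**
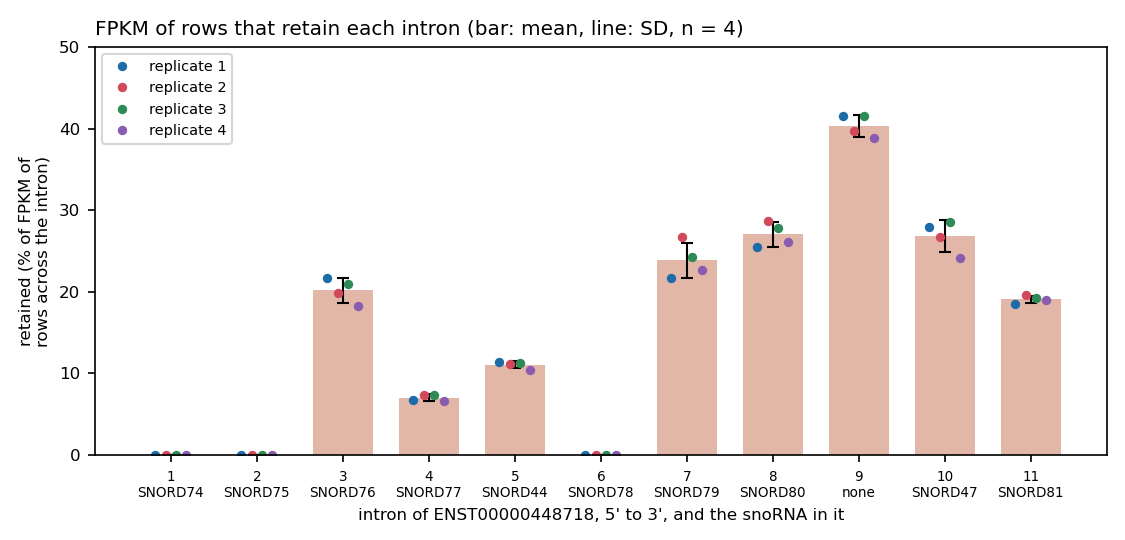
Share of each intron of ENST00000448718 that was retained, in percent of the FPKM of all rows that span it (bars, mean; lines, SD; points, the 4 libraries), with the snoRNA of each intron under its number. Intron 9, which holds no snoRNA, lies between 38.8% and 41.5%, above every other intron in each library.

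A pair of spliced isoforms swung between libraries. ENST00000448718 and ENST00000450589 both have 12 exons and differ in exon 7, which ends at 1 of 2 splice donor sites 39 bases apart. Both forms are shown by this exon and the first bases of the intron after it, with the 39 bases that only the longer form keeps in capitals. The exon is 38 bases long in ENST00000448718 and 77 bases long in ENST00000450589.
Exon 7 with both donor sites, chr1:173834599-173834685: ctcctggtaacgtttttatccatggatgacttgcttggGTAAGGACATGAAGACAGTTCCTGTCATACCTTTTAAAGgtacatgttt

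ENST00000448718, with the short exon, stood at 464.70, 323.65, 262.89 and 258.77 FPKM. ENST00000450589, with the long exon, stood at 67.96, 139.64, 107.49 and 316.00 FPKM, with both H libraries above both L libraries. The short form was higher in replicates 1 to 3 and the long form in replicate 4. The within-library difference of 1.24 ± 1.24 (SD) on the scale of log2(FPKM + 1) gave p = 0.25 in the exact sign-flip permutation test, and was 1.75 without replicate 4 and 0.73 without replicate 1, leave-outs chosen after seeing the data.

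ENST00000450589 had a CV of 69.4%, the highest of the 20 rows with a mean of at least 5 FPKM, and ENST00000448718 had one of 29.4%. Their sum was steadier, at 532.66, 463.29, 370.38 and 574.77 FPKM, a mean of 485.3 ± 89.3 FPKM (SD, n = 4). Over all rows that use either donor site, the long form held 51.1%, 50.9%, 55.1% and 56.8% of the FPKM in replicates 1 to 4. In fragments the long form held 64.0%, an alternative chosen after seeing the data. Neither site was a minor one by these estimates, and the swing of the 2 rows was not seen when all 20 rows that use these sites were summed.

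**Figure D3:**
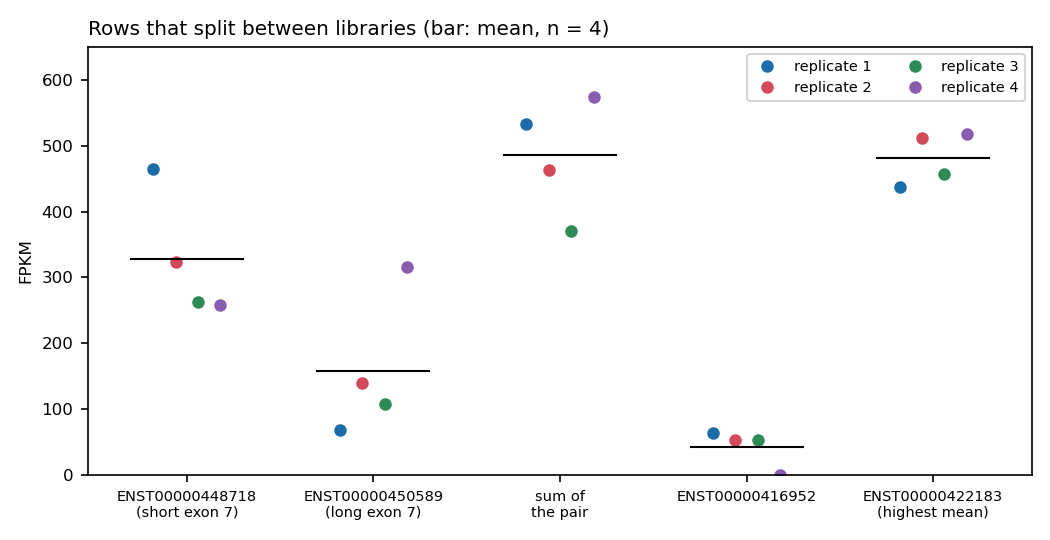
Level in FPKM (y axis, from 0) of selected GAS5 rows in each of the 4 libraries (points; black bar, mean). The short form ENST00000448718 lies highest in replicate 1, the long form ENST00000450589 lies at 316.00 FPKM in replicate 4 and at 139.64 FPKM or less in the others, and ENST00000416952 is listed at 0 in replicate 4.

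The summed FPKM of the gene had a CV of 6.53%, which 18 of the 20 rows with a mean of at least 5 FPKM exceeded, and the median CV of these rows was 16.7%. For comparison, the median CV of all 3133 rows of the table with means between 20 and 500 FPKM was 13.6%. Counting error alone, taken from the estimated fragments, gives these GAS5 rows a CV of 2.09% to 10.3%. The variances of the rows added up to 0.685 times the variance of their sum, so deviations of the rows did not cancel on balance. The part that division of shared fragments between rows has in this spread was not tested.

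Most GAS5 rows begin at 1 place. Of the 29 rows, 23 start within the 9 bases from 173837121 to 173837129, and these held 83.5% ± 1.45 of the summed FPKM. The bases before and after this start are shown because they carry the pyrimidine run of the gene. ENST00000448718 and 10 other rows start at the first base of the 6-base pyrimidine run in capitals, and 9 rows start 2 bases upstream of it.
Start of GAS5, chr1:173837097-173837197: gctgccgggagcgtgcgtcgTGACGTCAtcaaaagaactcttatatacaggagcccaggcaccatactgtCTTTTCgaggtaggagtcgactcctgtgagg

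Of 35116 RefSeq promoters (GRCh38), 4.07% start with C followed by 4 pyrimidines, as ENST00000448718 does. The 9 rows that start 2 bases upstream, among them ENST00000422183, do not start with this run. They held 38.5% ± 1.16 of the summed FPKM, against 38.2% ± 2.18 for the rows that start where ENST00000448718 does. RefSeq itself places the start of GAS5 1056 bases upstream of ENST00000448718. The 8-base palindrome TGACGTCA, also in capitals, begins 50 bases before the start and is present in 1.09% of RefSeq windows of 100 bases around a start and in 1.85% of windows of 300 bases. It is the same on both strands. These matches are a description of the sequence, and no binding was measured.

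Rows that start elsewhere were fewer. The 5 rows with an internal start held 16.5% ± 1.43 of the sum, and the 1 row with an upstream first exon, ENST00000430245, was listed at 0, 0, 1.34 and 0 FPKM. Among the internal starts, ENST00000432536 begins at 173836827, inside SNORD74, and stood at 198.49, 172.25, 171.99 and 217.17 FPKM, 5.30% ± 0.433 of the sum. ENST00000454068 and ENST00000451607 also begin in intron 1 and have part of SNORD74 in their first exon. Their means were 169.1 ± 22.9 and 54.46 ± 7.33 FPKM (SD, n = 4). With the rows that hold part of a snoRNA counted in, 76.3% of the summed FPKM lay in rows that touch a snoRNA.

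GAS5 was then set beside other genes that host snoRNAs. Of 20 host genes listed, 17 had rows in the table, and GAS5 was the third by summed FPKM, after SNHG5 and DANCR. Its leading row held 13.4% of its sum, against a median of 56.6% for the leading rows of the other 16 genes, with a range of 26.7% to 94.4%. The effective number of rows, the inverse of the summed squared shares, was 14.5 for GAS5. It was 6.60 for SNHG1, the next highest, which has 25 rows, and had a median of 2.15 over the other host genes.

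The number of annotated rows differs between these genes, so the comparison was repeated, by a choice made after seeing the data, with the host genes of at least 10 rows, where the leading share of GAS5 minus the median was -29.8 percentage points. Among all 84 genes with at least 10 rows and a summed mean of at least 5 FPKM, GAS5 had the highest effective number of rows, against a median of 2.69. How much of this comes from overlapping models was not tested.

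**Figure D4:**
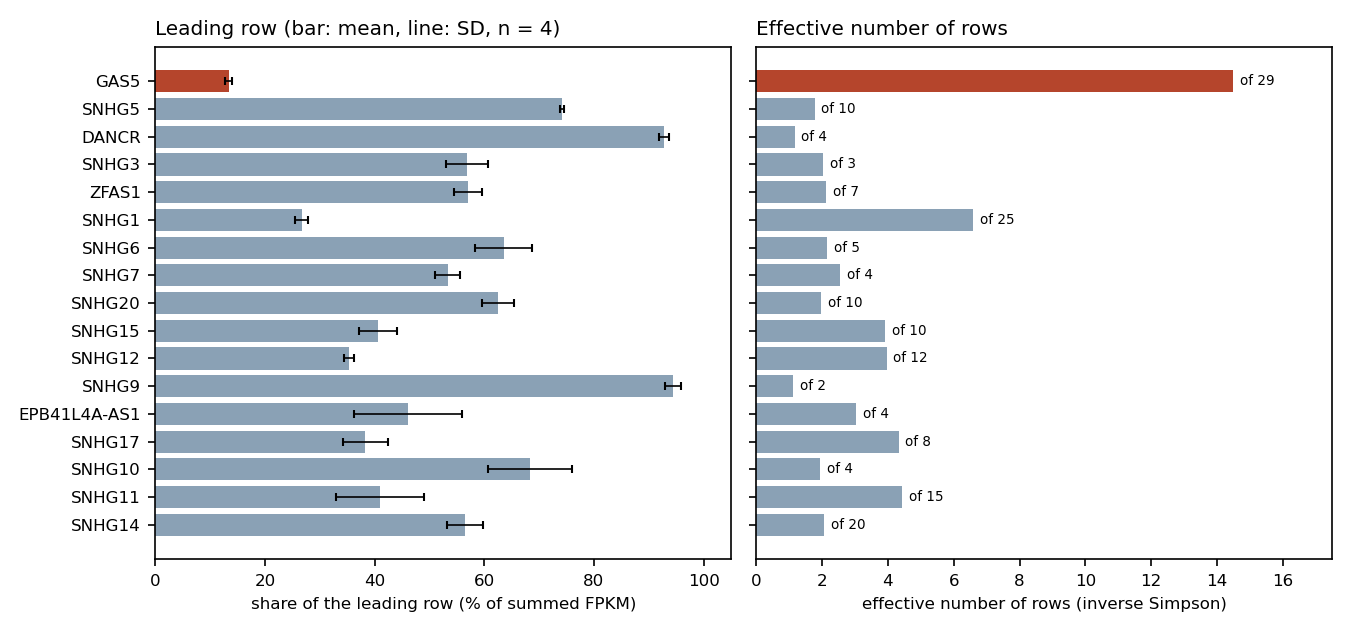
Share of the leading row in percent of the summed FPKM (left; bars, mean; lines, SD, n = 4) and effective number of rows (right, with the number of rows in the table) for GAS5, in red at the top, and 16 other snoRNA host genes in order of summed FPKM. GAS5 has the lowest leading share, 13.4%, and the highest effective number, 14.5.

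Small nucleolar RNAs are annotated in only some host genes on this build, so retained intron was compared through the annotated biotype instead. GAS5 rows of that biotype held 69.9% ± 1.68 of its sum. Of the other 16 host genes, 8 had any such row, which sets their median at 0, so that the difference of 69.9 percentage points cannot be told apart from a difference in annotation. Of those 8 genes, 2 had a higher share than GAS5: SNHG3, at 98.1% ± 0.0512, and SNHG12, at 82.7% ± 1.96. SNHG1 followed at 54.0% ± 1.57.

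The highest host genes beside GAS5 split less. SNHG5, with 4286 ± 401 FPKM, had 74.1% ± 0.380 of its sum in 1 row and 2.47% ± 0.30 in retained intron rows. DANCR, with 3882 ± 322 FPKM, had 92.7% ± 0.924 in 1 of 4 rows, and SNHG3, with 2787 ± 361 FPKM, had 56.8% ± 3.84 in 1 of 3 rows. At the low end, SNHG10, SNHG11 and SNHG14 had 133 ± 19.0, 88.69 ± 10.6 and 13.13 ± 1.0 FPKM.

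The genes whose summed level was closest to that of GAS5 over the 4 libraries, by Euclidean distance of log2(FPKM + 1), were AP006222.2 (distance 0.182), DANCR (0.320) and LINC01641 (0.354). AP006222.2 stood at 3373.45, 3338.67, 3226.53 and 3578.57 FPKM, highest in replicate 4 and lowest in replicate 3, as GAS5 was. LINC01641 was also highest in replicate 4 and lowest in replicate 3, while DANCR was highest in replicate 4 and lowest in replicate 2.

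The labelled line was checked against a short list of liver and other markers. Of the liver RNAs, HULC, which is known to be raised in liver cancer, stood at 693 ± 64.8 FPKM and LINC00261 at 377 ± 27.7 FPKM, while LINC01018 stood at 7.29 ± 1.12 FPKM and FAM99A and FAM99B at 0.237 ± 0.285 and 0.410 ± 0.0837 FPKM. LINC01554 had no row. Of the markers of other tissues, MIR155HG and MIR9-3HG were at 0, MIR142HG was at 0.0350 ± 0.0700 FPKM, MIR133A1HG at 2.0 ± 3.13 FPKM and MIAT at 3.16 ± 0.824 FPKM.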

How the data were processed

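Strand-specific RNA libraries of HUH7 cells were made by the authors after ribosomal RNA depletion (the labels also name polyA RNA). The authors deposited FPKM values with 2 decimals for non-coding transcripts. Per the submitters' notes, reads were aligned with Bowtie 1.01 and quantified with RSEM 1.2.3 on GRCh37. For non-coding genes the paper names the non-coding annotation of Ensembl as the reference. Coding transcripts were not in the table, and the strand setting is not given in the sources used here.

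GAS5 rows were matched to GENCODE 44 (GRCh37) by identifier without version. Rows were tested against 5 FPKM with limma 3.58.1 (R 4.3.3) on log2(FPKM + 1) with a mean-variance trend, over all rows with a mean of at least 0.1 FPKM and with Benjamini-Hochberg adjustment at 0.05, after a check on simulated data. The 29 rows include those listed at 0. Isoforms were compared within libraries by exact two-sided sign-flip permutation tests, which cannot go below p = 0.13 with 4 libraries. The fold changes on log2(FPKM + 1) understate those of low rows.

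Fragments were estimated from steps in low FPKM values at an effective length of length minus 80 nt, which made 55.2% to 55.8% of these values whole to a tolerance of 0.05. Because this share is low, no count test was run. Intervals from these depths cover counting error only.

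The snoRNAs were to be taken from the annotation. As it holds 1 of the 10, they were placed from box motifs, with names from RefSeq (GRCh38, order and lengths only) and a check with blastn 2.17.0. The host genes were compared by biotype for the same reason. Motif shares come from RefSeq promoters. Named were all rows with at least 5% of the sum, all snoRNA-bearing rows, rows that could not be placed, the 3 highest and 3 lowest other host genes and the 3 genes closest in level. Members, gene lists and tests were chosen with earlier results of these data known. Alternatives tried were other pseudocounts, filters, thresholds and scalings, fragments in place of FPKM, other snoRNA classes and leaving out each library.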

Additional observations from a re-analysis of the deposited data

Results flagged for a closer look

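Of 59 sets of 4 library values for GAS5 (rows, classes, introns and splice sites), 3 had 1 library far from the other 3. For each, the gap to the nearest value, divided by the whole range, was above the limit of Dixon's test, at which chance marks about 1 in 20 sets. ENST00000452197, which skips exons, was listed at 0 FPKM in replicates 1, 2 and 4 and at 5.94 FPKM in replicate 3, a ratio of 1. ENST00000430245, the row with the upstream first exon, was listed at 0 FPKM in the same replicates and at 1.34 FPKM in replicate 3, also a ratio of 1. The sum of the rows with 3 whole snoRNAs was 701.03 FPKM in replicate 4 and 663.03, 666.74 and 664.12 FPKM in replicates 1 to 3, a ratio of 0.902. The first 2 rest on about 2.84 and 1.02 fragments per library.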

How the results depend on the processing

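Of the 24 GAS5 rows tested, 20 kept their call against 5 FPKM under all 12 alternatives of the limma fit in which they were tested. The number called above 5 FPKM was 19 to 20 when each library was left out and 21 against a threshold of 1 FPKM. The number called below (3) was 7 with no filter on low values, where the 5 rows at 0 enter and ENST00000458220 is lost, and 1 against a threshold of 1 FPKM. It was 0 to 3 when each library was left out. The 0 came without replicate 3, where ENST00000452197 and ENST00000430245 are at 0 in all other libraries and were not tested, and limma then had 0 rows below at an unadjusted p under 0.05. Against 1 FPKM, ENST00000425771 and ENST00000458220 reversed, to 1.44 and 0.40 on the log2 scale.

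In fragments in place of FPKM, the leading share was 14.9%, then that of ENST00000422207, and it led the next row by 0.12 on the log2 scale. The share of snoRNA-bearing rows was 75.1% in fragments, 76.3% with any base of a snoRNA and 69.9% by biotype. The difference of GAS5 from the other host genes was 79.4 percentage points in fragments. It was 0 with the snoRNAs that GENCODE annotates on this build. For GAS5 these are SNORD78 alone, which is whole in no row, so its share was fixed at 0 and this value compares nothing. That alternative was chosen after seeing the data, as were those for splice sites, introns and starts. The same holds for ENST00000448718 over ENST00000450589 and for the leading share of the host genes. Restriction to rows of unchanged version was not run, since it leaves 1 GAS5 row. No paired analysis was possible because no libraries share a replicate number. Isoforms were compared within each library.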
